A study of Mus musculus with 15 samples.

Results

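Translation initiation factors bring the small ribosomal subunit, the initiator tRNA and the mRNA together at a start codon, and elongation factors then deliver each aminoacyl-tRNA and move the ribosome along the message. The supply of active eIF2 and of the cap-binding complex eIF4F is the main point at which cells adjust how much protein they make, and the kidney tubule, with its dense transporters and enzymes, is a tissue of high protein turnover. The genes described here are the protein-coding mouse genes whose GENCODE M21 symbol starts with Eif or Eef and a digit, without the kinases of eIF2. They numbered 64 of 21951 protein-coding genes, of which 51 were initiation genes and 13 were elongation genes. By role they comprised 6 genes of scanning and start codon selection, 6 of eIF2 and its alternatives, 5 of eIF2B, 14 of eIF3, 12 of eIF4F and its helpers, 4 inhibitors or transporters of eIF4E, 2 of eIF5A, 2 of subunit joining, 6 of eEF1, 1 of eEF2 and 6 enzymes that modify elongation factors.

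RNA was sequenced from the kidneys of 15 wild-type male C57BL/6 mice, 8 weeks old when purchased, with 5 mice in each of 3 groups. Control mice received saline for 28 days from osmotic pumps under the skin and water by gavage. AngII mice received angiotensin II, the peptide hormone that raises blood pressure, at 500 ng/kg/min for 28 days, and the same gavage of water. AngII+QDG mice received angiotensin II at the same dose and, by gavage, Qingda granule (QDG), an extract of 4 herbs (Gastrodia elata, Uncaria rhynchophylla, Scutellaria baicalensis and Nelumbo nucifera), at 1.145 g/kg/day. The study asked which kidney transcripts change with hypertension from angiotensin II and which of them change with the granule. Each animal is a separate sample of whole renal tissue, in which fewer cells of a type and less RNA per cell cannot be told apart.

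Levels are in FPKM, fragment counts scaled for transcript length and library size, and the transcripts of a gene were summed. The steps between low values implied library totals of 68922839 to 81329503 reads. Defining markers of the proximal tubule, thick ascending limb, podocytes and endothelium were all listed, and 0 of 6 skeletal muscle markers had a listed transcript. Of the adrenal cortex markers, 1 of 4 had a listed transcript. All 4 adipocyte markers were listed, with sums of 26.5 to 104 FPKM in Control, 25.1 to 174 in AngII and 40.0 to 77.3 in AngII+QDG mice. Mean Spearman correlation with the other mice was 0.922 for AngII mouse 3 and between 0.924 and 0.932 for the other 14. Summed podocyte markers were 76.6 to 85.7 FPKM in Control, 103 to 130 in AngII and 100 to 127 in AngII+QDG mice, with 2 of the 4 called in AngII vs Control. Summed intercalated cell markers (3 of 4 with a value, Slc4a1 without) were 64.4 to 73.8, 79.4 to 113 and 81.1 to 118 FPKM, so Control lay below both other groups, and 1 was called. Smooth muscle sums (38.5 to 50.7, 43.0 to 97.8 and 52.9 to 61.2 FPKM) and fibroblast and pericyte sums (4.51 to 11.3, 7.47 to 30.2 and 7.16 to 18.1 FPKM) overlapped between Control and AngII, with 1 of 4 markers called in each. Summed red blood cell markers were 545 to 1362, 1115 to 1943 and 1557 to 2818 FPKM in the order Control, AngII and AngII+QDG, and summed proximal tubule markers were 4924 to 16528, 5126 to 7127 and 7312 to 12013 FPKM. All 4 podocyte, 5 red blood cell and 7 proximal tubule markers had a value, none of the red blood cell and proximal tubule markers was called, and the part of these shifts in the results below was not tested.

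Of the 64 genes, 62 had a transcript listed in all mice, with 193 such transcripts in all. Eef1a2, the form of eEF1A best known from muscle and neurons, and Eif4e1b, an oocyte form of the cap-binding protein, had no listed transcript. Eef2k, the kinase that inhibits eEF2, was listed at 0.529 to 1.33 FPKM and did not reach the minimum of 1 FPKM in 5 mice, so 61 genes were tested (50 initiation and 11 elongation). Eef1a1, which carries aminoacyl-tRNA to the ribosome, was the most abundant with a mean of 1775 FPKM over 15 mice, followed by Eef2, the translocation factor, at 579 FPKM and Eif5a, the factor that helps the ribosome past difficult peptide bonds, at 218 FPKM. The ranges of these 3 genes over the 15 mice (1534 to 2085, 549 to 658 and 186 to 257 FPKM) did not overlap, whereas the next ones, Eif1, Eef1g and Eif4g2, overlapped each other.

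The plot of levels by gene shows that 6 genes had means above 100 FPKM and 12 below 5 FPKM. In 37 of the 62 genes the highest mouse of every group was within 1.5-fold of the lowest, and in 14 it was over 3-fold in at least 1 group. Eif4e, the cap-binding protein, was among the variable ones, at 19.7, 17.9, 10.7, 0.661 and 12.2 FPKM in Control mice. Eif3a, the largest scaffold subunit of eIF3, was listed at 0.0689 to 2.11 FPKM through a single transcript, while the other subunits of that complex except Eif3j1 and Eif3j2 had means between 30.1 and 95.7 FPKM. In these libraries 11141 assembled transcripts that carry no gene name took between 9.57% and 11.9% of all shared FPKM, and reads of a member that fell on them are not part of its sum.

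**Figure D1:**
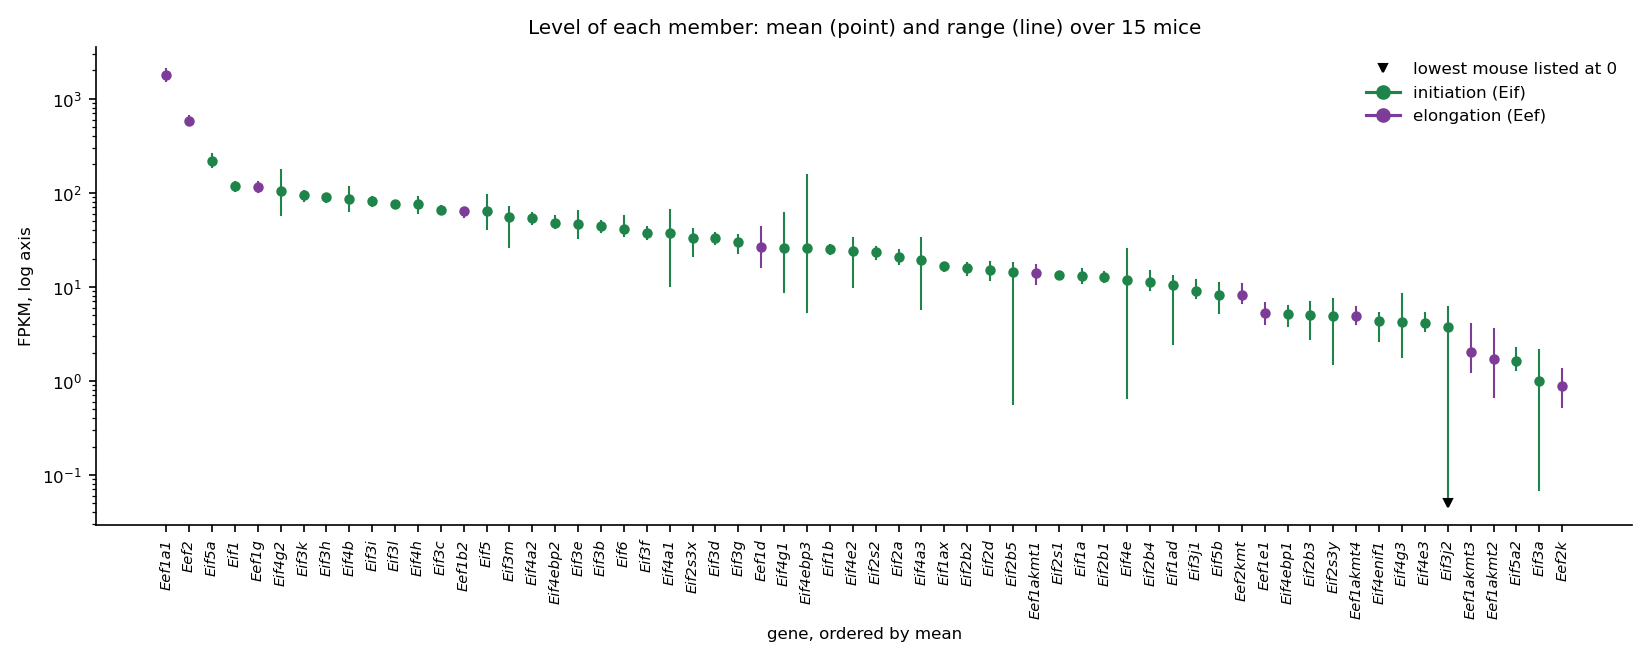
FPKM (log axis) of the 62 listed genes in order of their mean, with the point at the mean and the line from the lowest to the highest of 15 mice, initiation genes in green and elongation genes in purple, and a triangle where the lowest mouse was listed at 0 (Eif3j2). Eef1a1 at 1775 FPKM and Eef2 at 579 FPKM stand at the top, Eef2k at the bottom, and the long lines belong to genes such as Eif4e, Eif2b5 and Eif3a.

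Summed over genes, initiation factors took 1870 ± 59.4 FPKM in Control, 1964 ± 71.4 in AngII and 1819 ± 54.6 in AngII+QDG mice (mean ± SD, n = 5 each). The elongation sum was 2618 ± 165, 2457 ± 111 and 2716 ± 203 FPKM in the same order, and Eef1a1 alone made up 68.8%, 66.6% and 69.3% of it. The initiation sums of AngII mice (1884 to 2062 FPKM) lay above all those of AngII+QDG mice (1743 to 1867) and overlapped Control (1785 to 1940), and the elongation sums of all 3 groups overlapped. As a percentage of all shared FPKM, the initiation sums of AngII (0.3512% to 0.3957%) and AngII+QDG mice (0.3091% to 0.3513%) overlapped. By symbol, the initiation sum includes the eIF5A genes, at 218 to 254 FPKM in AngII and 188 to 229 in AngII+QDG mice. It also includes the inhibitors and transporter of eIF4E, at 68.9 to 207 and 67.0 to 80.5 FPKM. The ratio of the elongation to the initiation sum was 1.48, 1.40, 1.32, 1.35 and 1.46 in Control mice, 1.25, 1.22, 1.24, 1.35 and 1.20 in AngII mice, and 1.30, 1.57, 1.60, 1.62 and 1.38 in AngII+QDG mice. Only AngII mouse 4 reached into the range of either other group. These sums are descriptions and were not tested.

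**Figure D2:**
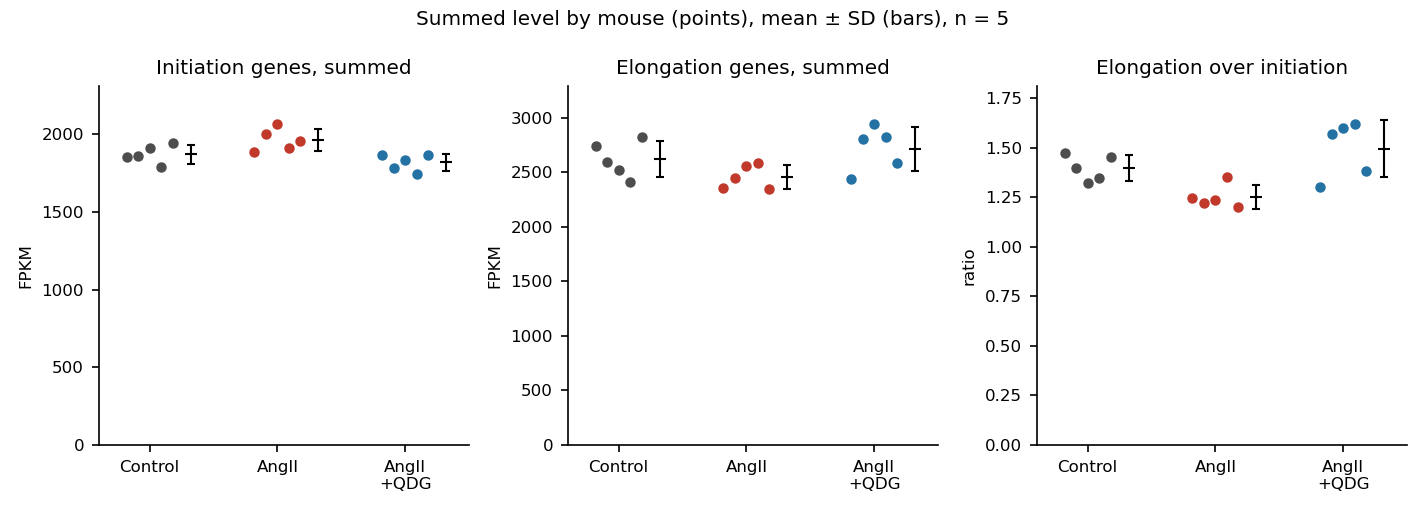
Summed FPKM of the initiation genes and of the elongation genes, and the ratio of the sums, with a point per mouse and the mean ± SD beside it (n = 5 per group). The initiation sums of AngII mice, from 1884 to 2062 FPKM, overlap Control and lie above AngII+QDG, and their ratios, from 1.20 to 1.35, are below all others except in AngII mouse 4.

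The start regions of the 6 changed genes with a single promoter in the RefSeq table are shown so that they can be set beside those of Eef1a1 and Eif3f, whose start lies in a run of pyrimidines like that of the messages controlled through mTORC1. The windows run from 80 bases before to 15 bases from the start that RefSeq annotates on GRCm38.p6, 5′ to 3′ in the direction of transcription. Capitals mark the motif CCGGAAGT of the ETS family, searched on both strands, or a run of at least 8 C or T bases that starts within 10 bases of the annotated start.
Eef1e1, chr13:38659014-38659108, minus strand: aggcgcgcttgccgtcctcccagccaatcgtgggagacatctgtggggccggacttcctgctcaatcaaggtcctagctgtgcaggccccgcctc
Eif2b4, chr5:31193125-31193219, minus strand: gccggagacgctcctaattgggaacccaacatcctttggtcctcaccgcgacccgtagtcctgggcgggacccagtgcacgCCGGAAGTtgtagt
Eif3b, chr5:140419225-140419319, plus strand: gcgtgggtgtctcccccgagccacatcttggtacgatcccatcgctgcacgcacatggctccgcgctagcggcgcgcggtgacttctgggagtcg
Eif3g, chr9:20898576-20898670, minus strand: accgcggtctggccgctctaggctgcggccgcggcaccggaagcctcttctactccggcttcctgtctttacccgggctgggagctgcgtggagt
Eif4b, chr15:102073693-102073787, plus strand: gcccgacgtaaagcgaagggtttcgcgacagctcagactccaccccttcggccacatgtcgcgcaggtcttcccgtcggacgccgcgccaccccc
Eif4h, chr5:134639395-134639489, minus strand: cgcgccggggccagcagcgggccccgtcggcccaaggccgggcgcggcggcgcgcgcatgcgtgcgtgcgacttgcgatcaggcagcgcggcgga
Eef1a1, chr9:78481710-78481804, minus strand: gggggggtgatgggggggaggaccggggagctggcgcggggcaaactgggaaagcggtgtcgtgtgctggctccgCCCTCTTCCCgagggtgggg
Eif3f, chr7:108934335-108934429, plus strand: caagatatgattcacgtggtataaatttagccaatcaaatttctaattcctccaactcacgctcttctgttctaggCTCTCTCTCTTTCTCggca

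The RefSeq table held 62 promoters of 48 of the 64 genes. The whole promoter entry of that table, which is longer than these windows, held CCGGAAGT in 10 of these 62 (16.1%), against 3.89% of all 32851 promoters. The pyrimidine run was found in 8 of 62 (12.9%), against 8.84% of all promoters, and its genes were Eef1a1, Eif2b2, Eif2s3x, Eif2s3y, Eif3f, Eif3l and Eif4enif1. Of these 7 genes Eif4enif1 passed a test between groups, as described with the eIF4E inhibitors. Of the 6 changed genes printed above, Eif2b4 held the ETS motif and none had the run at its annotated start, whereas Eif4enif1, which has 4 promoters in the table and is not printed, had a run of 10 bases. The search for the run covers the annotated start alone, so it cannot show that a gene lacks such a run where its transcripts begin elsewhere. Eif6, Eef1g and Eif4g2 have no promoter in that table, so they were not searched. A match is a run of letters in the promoter entry and was not tied to any binding data.

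In AngII vs Control, 9 of the 61 tested genes passed an adjusted p of 0.05 in the limma fit. Eif3g, Eif4h, Eif6, Eif3b, Eif2b4, Eif4enif1, Eef1g and Eef1e1 rose, and Eif4b fell. This was 14.8% of the members, against 5.94% of all 12366 genes tested, and the split of 8 higher and 1 lower stood beside 4.95% higher and 0.995% lower among all genes. The members are more abundant than most genes (a median level of 23.7 against 6.89 FPKM), and among genes with a mean of at least 10 FPKM the shares were 15.6% of 45 members and 8.67% of 4904 genes. Read without adjustment, 18 of 61 members had p under 0.05, against 22.7% of all genes. None reached a fold of 2 with p under 0.05, against 1.04% of all genes. In 8 members every AngII mouse was above every Control mouse, against 6.49% of all genes, and in 2 (Eif4b and Eif3m) every AngII mouse was below, against 1.42%.

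The fold changes were small and went both ways. Measured as differences of log2(FPKM + 1), the medians were 0.02 over the initiation genes and 0.08 over the elongation genes, beside 0.08 over all genes, and under quantile normalization the 3 medians were -0.0735, -0.00368 and -0.00613, so the list medians shifted with that of all genes. The number called also moved with the scaling. It was 2 higher (Eif3g and Eif4h) and 3 lower (Eif3h, Eif4b and Eif5b) after quantile normalization, 2 higher and 4 lower (Eif3e as well) after scaling to equal medians, and 2 higher and 2 lower (Eif3h and Eif4b) after a GC correction added later. The calls among all 12366 genes turned in the same way, from 612 higher and 123 lower to 227 and 266 after quantile normalization, 201 and 271 at equal medians and 132 and 168 after the GC correction. Without AngII mouse 3, the library farthest from the others, 6 genes were called, and without Control mouse 1, 3 or 5 or AngII mouse 5 there were 5.

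In AngII+QDG vs AngII, 6 of the 61 passed, against 1.81% of all genes. Eef1e1, Eif3b, Eif4g2, Eif2b4 and Eif6 fell and Eif4b rose, and background shares were 1.29% lower and 0.526% higher. Among genes of at least 10 FPKM, 5 of 45 members (11.1%) were called, against 3.22% of all such genes. At an unadjusted p under 0.05 there were 17 of 61 members and 16.4% of all genes, and none of the members had a fold of 2 as well, against 0.817% of all genes. All AngII+QDG mice were above all AngII mice in 2 members (Eif4b and Eif3f), against 1.56% of all genes, and below them in 6, against 3.44%. The medians were -0.02 for initiation genes (0.03 after quantile normalization) and -0.06 for elongation genes, beside -0.02 for all genes. With quantile normalization or equal medians 1 member was higher and 3 were lower, while the calls among all genes went from 65 higher and 159 lower to 97 and 97 or 72 and 112. The count fell to 2 without AngII mouse 2, 3 or 5 or without AngII+QDG mouse 2, 3, 4 or 5, and to 3 without AngII mouse 4. The proximal tubule marker sums of these 2 groups did not overlap either, as given above.

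In AngII+QDG vs Control, none of the 61 passed in the limma fit, against 0.129% of all genes, and 5 had an unadjusted p under 0.05, against 14.4% of all genes. Eif3g came nearest, at a log2 fold change of 0.27 ± 0.06 (SE) and an adjusted p of 0.0771, and it passed without Control mouse 2 or 5. AngII+QDG and Control mice did not overlap in Eif3g (higher, as in 2.78% of all genes) and Eif2s1 (lower, as in 0.857%). The 3 comparisons share mice, so a high value in AngII mice enters the difference from Control and that from AngII+QDG alike.

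**Figure D3:**
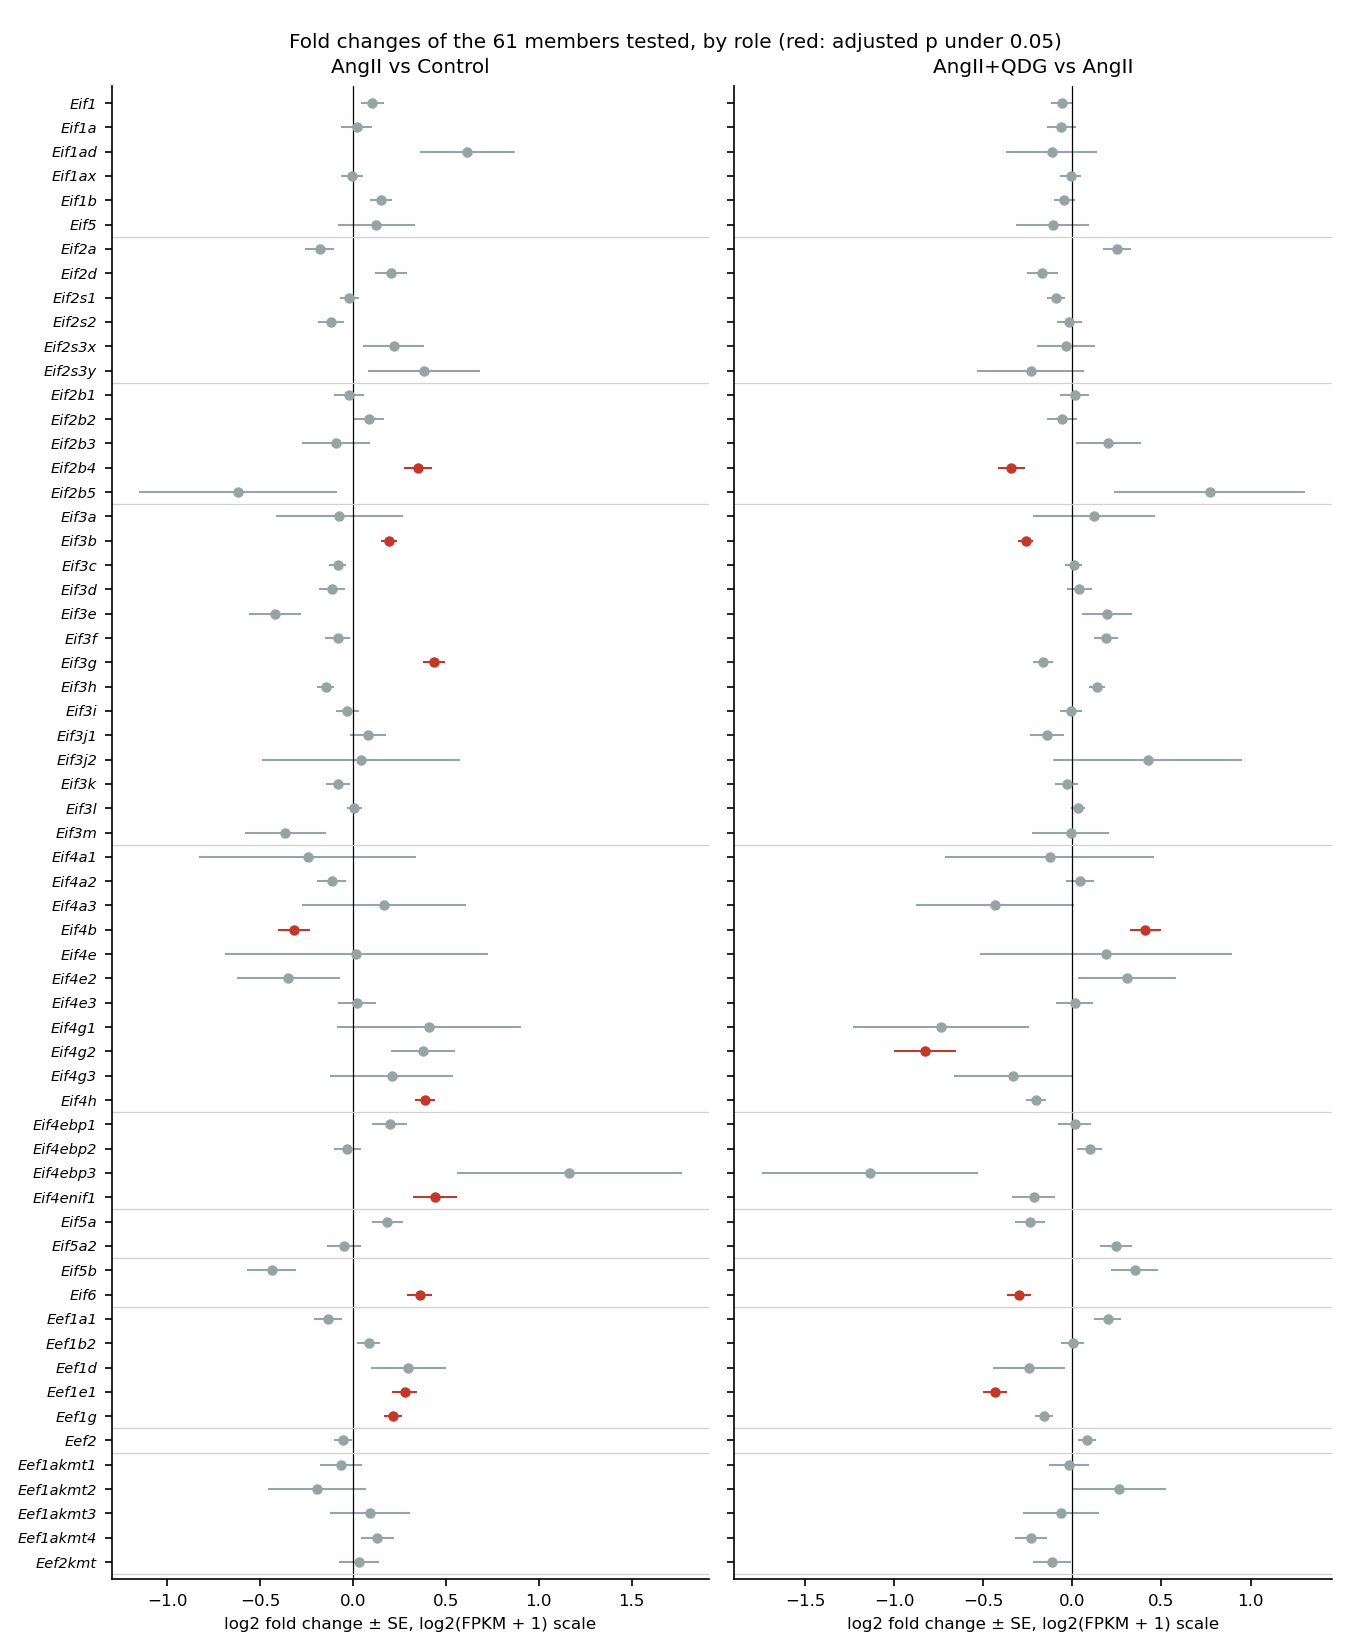
Log2 fold change ± SE of the 61 tested genes in AngII vs Control (left) and AngII+QDG vs AngII (right), on the log2(FPKM + 1) scale, grouped by role with grey lines between the roles. Red points passed an adjusted p of 0.05: 9 on the left, all but Eif4b to the right of 0, and 6 on the right, all but Eif4b to the left of 0.

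Among the factors of scanning and start codon selection, 0 of 6 passed in any comparison in limma. 2 of them (Eif1b and Eif1ad) had an unadjusted p under 0.05 in AngII vs Control, against 22.7% of all genes. Eif1, which guards the choice of the start codon, was 115 ± 7.61, 124 ± 5.40 and 119 ± 8.88 FPKM in Control, AngII and AngII+QDG mice, a log2 difference of 0.10 ± 0.06 (SE) in AngII vs Control. Eif5, which makes eIF2 hydrolyse its GTP at the start codon, ranged from 41.0 to 95.1 FPKM and differed by 0.13 ± 0.21 (SE) between AngII and Control. Eif1ad, a relative of eIF1A, was higher in each AngII mouse than in any Control mouse (10.9 to 12.9 against 2.49 to 10.4 FPKM), with a log2 difference of 0.61 ± 0.26 (SE) and an adjusted p of 0.171. Control mouse 4, at 2.49 FPKM, stood apart from the other Control mice (8.68 to 10.4 FPKM) and widens that difference.

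eIF2 carries the initiator tRNA, and none of its 3 kinds of subunit passed the test. Eif2s1, the alpha subunit on which the stress kinases act, was 13.8 ± 0.670, 13.6 ± 0.678 and 12.7 ± 0.246 FPKM in Control, AngII and AngII+QDG mice. The gamma subunit has copies on the X and the Y chromosome. Eif2s3x ranged from 21.2 to 41.4 FPKM and Eif2s3y from 1.49 to 7.50 FPKM, and the authors' counting could have split reads between these near-identical copies. Their log2 differences in AngII vs Control were 0.22 ± 0.16 and 0.38 ± 0.30 (SE).

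eIF2B recharges eIF2 with GTP, and of its 5 subunits the delta subunit Eif2b4 changed. Eif2b4 (ENSMUSG00000029145, GRCm38 chr5:31187558-31193430) was 9.24, 9.43, 10.1, 11.8 and 10.7 FPKM in Control mice, 12.2, 12.6, 14.8, 13.7 and 13.4 in AngII mice, and 10.1, 9.29, 11.1, 10.6 and 10.4 in AngII+QDG mice. All AngII mice lay above all mice of both other groups. It rose by a log2 fold change of 0.35 ± 0.08 (SE) in AngII vs Control (adjusted p = 0.0184), and in AngII+QDG vs AngII it changed by -0.34 ± 0.08 (adjusted p = 0.0385). The first call was lost without Control mouse 1 (adjusted p = 0.0507), and with quantile normalization (0.0944), equal medians (0.114) or the GC correction (0.272). The second was lost without any 1 of AngII mice 2 to 5, the AngII+QDG mice or Control mouse 3 (adjusted p up to 0.0971), and with quantile normalization, equal medians, only the 2 groups or the GC correction (up to 0.122).

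Eif2b4 overlaps Snx17 on the opposite strand, which was at 32.1 FPKM, and whether the counting used strand is not given in the sources used here, so reads of the overlap cannot be assigned. The catalytic subunit Eif2b5 was 17.6, 9.42, 18.1, 0.570 and 16.9 FPKM in AngII mice and 15.7 to 16.6 in AngII+QDG mice. AngII mice 2 and 4 were low and the other 3 were not, and the log2 difference of 0.77 ± 0.53 (SE) in AngII+QDG vs AngII did not pass (adjusted p = 0.515). The other 3 subunits differed by at most 0.20 in size in both comparisons.

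eIF3 holds the small subunit ready for the mRNA. 2 of its 14 genes rose in AngII vs Control, beside 4.95% of all genes, and none fell at the threshold, beside 0.995%. Differences were negative in 9 of the 14 with a median of -0.08, beside 4348 of 12366 genes with a median of 0.08. Eif3g, an RNA-binding subunit at the edge of the complex (ENSMUSG00000070319, chr9:20894349-20898623), was 23.1, 26.4, 23.1, 25.5 and 28.2 FPKM in Control, 32.6, 34.9, 34.8, 35.4 and 34.5 in AngII, and 31.2, 31.8, 30.0, 30.7 and 29.3 in AngII+QDG mice. The 3 groups did not overlap, with AngII+QDG between the others. The log2 fold change was 0.44 ± 0.06 (SE) in AngII vs Control with an adjusted p of 0.00392, the smallest among the members, and the call held in all 15 fits that left out 1 mouse and in all 8 other settings, which gave 0.31 to 0.45. In AngII+QDG vs AngII it was -0.16 ± 0.06 and did not pass (adjusted p = 0.161).

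Eif3b, a core subunit on which others are assembled (ENSMUSG00000056076, chr5:140419328-140443360), was 42.4, 44.9, 41.1, 43.0 and 40.8 FPKM in Control, 50.1, 48.4, 49.2, 48.0 and 47.6 in AngII, and 40.6, 40.9, 38.6, 41.8 and 40.2 in AngII+QDG mice. The AngII mice stood above both other groups, which overlapped each other. Eif3b rose by 0.19 ± 0.04 (SE) on the log2 scale in AngII vs Control (adjusted p = 0.0174), a call that held without any 1 mouse but not after quantile normalization (0.143), at equal medians (0.161) or after the GC correction (0.07, adjusted p = 0.379). In AngII+QDG vs AngII the difference was -0.26 ± 0.04 (adjusted p = 0.0132), and it held in all 15 and all 8 other fits.

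The remaining eIF3 subunits stayed short of the threshold. Eif3e was 48.8, 63.0, 63.8, 45.0 and 47.3 FPKM in Control mice and 38.9, 48.4, 33.3, 36.0 and 41.4 in AngII mice. AngII mouse 2 reached into the Control range, and the difference of -0.42 ± 0.14 (SE) had an adjusted p of 0.0899. Eif3h, whose values were tighter (88.9 to 96.4 FPKM in Control and 79.5 to 89.0 in AngII mice), differed by -0.15 ± 0.05 with an adjusted p of 0.0768. Both passed as lower at equal medians, and Eif3h also after quantile normalization and the GC correction. Eif3a differed by -0.07 ± 0.34 on levels around 1 FPKM.

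eIF4F joins the cap-binding protein eIF4E, the scaffold eIF4G and the helicase eIF4A, and Eif4h and Eif4b code for proteins that both stimulate that helicase. These 2 helpers moved in opposite directions in AngII vs Control. Eif4h (ENSMUSG00000040731, chr5:134619721-134639490) was 62.1, 71.1, 61.9, 61.7 and 71.7 FPKM in Control, 86.7, 90.6, 82.8, 82.0 and 88.1 in AngII, and 77.6, 75.5, 74.3, 69.8 and 76.2 in AngII+QDG mice. AngII mice stood above all others, and AngII+QDG mice overlapped Control through mouse 4. It rose by 0.39 ± 0.06 (SE) on the log2 scale (adjusted p = 0.00497), and this held in all 15 leave-one-out fits and all 8 other settings (0.26 to 0.39). The difference in AngII+QDG vs AngII, -0.20 ± 0.06, did not pass (adjusted p = 0.0803).

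Eif4b (ENSMUSG00000058655, chr15:102073773-102097173) was 78.4, 90.9, 85.4, 78.9 and 115 FPKM in Control, 71.8, 71.6, 64.8, 73.3 and 74.2 in AngII, and 88.6, 99.8, 93.9, 95.1 and 96.5 in AngII+QDG mice. AngII mice were below all others, and Control mouse 5 was the highest of all. The change in AngII vs Control was -0.32 ± 0.09 (SE) with an adjusted p of 0.0495, just under the threshold, and of 15 fits without a mouse only that without Control mouse 4 kept the call, with an adjusted p up to 0.0951 in the others. It was also lost in 4 of 8 other settings (a pseudocount of 0.1, no filter, only the 2 groups and protein-coding transcripts only, up to 0.111). Eif4b rose by 0.41 ± 0.09 in AngII+QDG vs AngII (adjusted p = 0.0341), in all 8 other settings, but not without any 1 AngII mouse or any 1 of AngII+QDG mice 2 to 5 (up to 0.0872).

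Eif4g2, an eIF4G relative that lacks the eIF4E site and serves cap-independent starts (ENSMUSG00000005610, chr7:111067750-111083030), was 108, 109, 115, 74.5 and 106 FPKM in Control, 126, 173, 150, 99.2 and 122 in AngII, and 103, 62.9, 71.9, 58.4 and 80.8 in AngII+QDG mice. AngII+QDG mouse 1 overlapped AngII mouse 4. The gene changed by -0.83 ± 0.17 (SE) in AngII+QDG vs AngII (adjusted p = 0.0327), the widest change among those called, and the call was lost without AngII mouse 1, 2, 3 or 5 or AngII+QDG mouse 2, 3, 4 or 5 (up to 0.0816), and with only the 2 groups fitted (0.0755). The sum joined unlike transcripts. Its main one, Eif4g2-213, was 65.5, 50.7, 88.2, 78.3 and 79.3 FPKM in AngII mice and 84.0, 52.4, 63.4, 51.2 and 60.9 in AngII+QDG mice, which overlap. The short Eif4g2-203 was 9.03, 69.4, 50.2, 0 and 31.5 FPKM in AngII mice and at most 5.42 in AngII+QDG mice, and it did not pass by itself (adjusted p = 0.221). Eif4g2-206 was 43.1, 43.1, 7.74, 14.8 and 6.96 FPKM in AngII mice and 8.93, 6.36, 4.17, 3.66 and 12.3 in AngII+QDG mice, with AngII mice 1 and 2 apart from the rest, and did not pass either (adjusted p = 0.306).

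The core of eIF4F spread widely between mice, and none of its genes passed. Eif4e ranged from 0.661 to 25.1 FPKM, Eif4a1 from 10.3 to 65.5 FPKM and the scaffold Eif4g1 from 8.78 to 60.7 FPKM. Their log2 differences in AngII vs Control were 0.02 ± 0.71, -0.25 ± 0.59 and 0.41 ± 0.49 (SE), so changes of the size seen in Eif4h were not detectable in them with 5 mice a group. Eif4a2, the near copy of Eif4a1, was at 47.1 to 61.4 FPKM and differed by -0.11 ± 0.08.

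Of the proteins that hold eIF4E back or carry it, Eif4enif1 changed. Eif4enif1, the transporter that takes eIF4E into the nucleus and to sites of mRNA decay (ENSMUSG00000020454, chr11:3202392-3244588), was 4.60, 3.89, 2.77, 4.03 and 2.63 FPKM in Control, 5.12, 5.19, 5.16, 5.23 and 4.97 in AngII, and 4.46, 3.62, 4.39, 5.24 and 3.83 in AngII+QDG mice. AngII mice lay above Control and overlapped AngII+QDG. It rose by 0.44 ± 0.12 (SE) on the log2 scale (adjusted p = 0.0470), but only the fits without Control mouse 1, Control mouse 2 or AngII+QDG mouse 4 kept the call among 15 (others up to 0.109), and it was lost in 6 of 8 other settings. Eif4enif1 overlaps Drg1 on the opposite strand, at 25.8 FPKM.

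The mTORC1-controlled inhibitor Eif4ebp1 was 4.63 ± 0.637, 5.44 ± 0.602 and 5.48 ± 0.505 FPKM in Control, AngII and AngII+QDG mice, with a log2 difference of 0.20 ± 0.10 (SE) in AngII vs Control (adjusted p = 0.240). Eif4ebp2, the more abundant inhibitor, was 47.4 ± 5.80, 46.1 ± 2.38 and 49.4 ± 1.48 FPKM. Eif4ebp3 reached 154 FPKM in AngII mouse 3, while the other AngII mice were between 10.4 and 39.3 FPKM, and its difference of 1.17 ± 0.61 did not pass.

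Eif6 keeps the large subunit from joining the small one too early and helps that subunit mature. Eif6 (ENSMUSG00000027613, chr2:155819832-155826925) was 34.4, 38.9, 37.3, 38.6 and 36.8 FPKM in Control, 44.0, 45.2, 56.4, 48.5 and 46.5 in AngII, and 42.4, 35.9, 39.9, 37.7 and 38.4 in AngII+QDG mice. The AngII mice were the 5 highest, with mouse 3 on top. It rose by 0.36 ± 0.07 (SE) in AngII vs Control (adjusted p = 0.0120), in all 15 leave-one-out fits, and not after quantile normalization (0.0503), at equal medians (0.0744) or with the GC correction (0.209). The change in AngII+QDG vs AngII was -0.30 ± 0.07 (adjusted p = 0.0427) and, of 15 fits without a mouse, was kept in those without AngII mouse 1, AngII+QDG mouse 1 or Control mouse 1 (others up to 0.109). Of 8 other settings it was lost in 4, quantile normalization, equal medians, only the 2 groups and the GC correction (up to 0.151).

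Eif5b, the GTPase that does join the subunits, was 7.91 to 10.9 FPKM in Control mice (median 8.74) and 5.56, 8.64, 5.30, 8.33 and 5.47 in AngII mice. AngII mice 2 and 4 overlapped Control, and the difference of -0.44 ± 0.13 (SE) had an adjusted p of 0.0657. It passed as lower after quantile normalization, at equal medians and without AngII mouse 2 or 4. Eif5a was 212 ± 26.9, 240 ± 14.5 and 204 ± 17.7 FPKM in Control, AngII and AngII+QDG mice and its rare copy Eif5a2 1.54 ± 0.258, 1.45 ± 0.178 and 1.91 ± 0.232 FPKM. In AngII+QDG vs AngII their log2 differences were -0.24 ± 0.08 and 0.24 ± 0.09 (SE), neither past the threshold (adjusted p = 0.164 and 0.193).

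**Figure D4:**
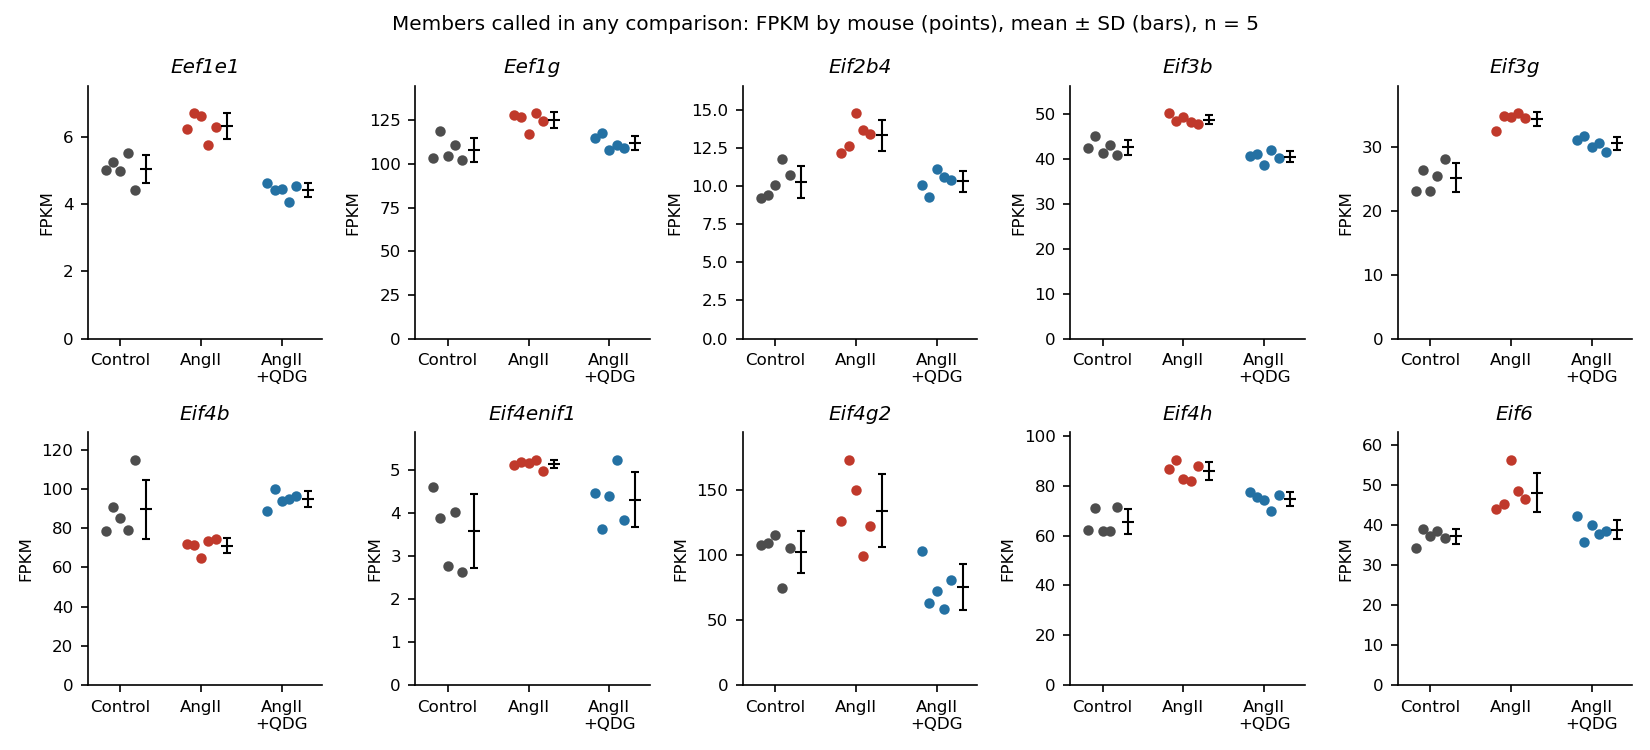
FPKM of the 10 genes that passed in any comparison, a panel per gene with a point per mouse and the mean ± SD beside it (n = 5 per group, axes from 0). AngII mice lie above both other groups in Eif2b4, Eif3b, Eif3g, Eif4h, Eif6 and Eef1e1 and below both in Eif4b.

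On the elongation side 2 of 11 tested genes rose in AngII vs Control, beside 4.95% of all genes, and 1 fell in AngII+QDG vs AngII, beside 1.29%. Eef1e1 (ENSMUSG00000001707, chr13:38644207-38659058) codes for an auxiliary protein that is best known as part of the complex of aminoacyl-tRNA synthetases. It was 5.01, 5.26, 4.99, 5.54 and 4.44 FPKM in Control, 6.23, 6.72, 6.64, 5.77 and 6.29 in AngII, and 4.63, 4.43, 4.46, 4.06 and 4.54 in AngII+QDG mice. AngII mice were above all others, and AngII+QDG mice overlapped Control through Control mouse 5. It rose by 0.28 ± 0.07 (SE) on the log2 scale in AngII vs Control (adjusted p = 0.0287), but not in 5 of 8 other settings (quantile normalization, equal medians, only the 2 groups, GC correction and protein-coding transcripts only, up to 0.148) and not without AngII mouse 2, 3 or 5 or Control mouse 1, 3 or 5 (up to 0.0681). The change in AngII+QDG vs AngII, -0.43 ± 0.07, had an adjusted p of 0.0132 and held in all 15 and all 8 other fits.

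Eef1g, the gamma subunit of the complex that reloads eEF1A with GTP (ENSMUSG00000071644, chr19:8967041-8978479), was 103, 119, 105, 111 and 102 FPKM in Control, 128, 127, 117, 129 and 125 in AngII, and 115, 118, 108, 111 and 109 in AngII+QDG mice. AngII mouse 3 overlapped the other groups. It rose by 0.21 ± 0.05 (SE) in AngII vs Control (adjusted p = 0.0246), and the call was lost with quantile normalization, equal medians, only the 2 groups or the GC correction (up to 0.102) and without AngII mouse 2 or 5 or Control mouse 1, 3 or 5 (up to 0.0626). The other subunits of that complex did not pass in any comparison. Eef1b2 was 61.6 ± 5.57, 65.2 ± 3.34 and 65.3 ± 3.07 FPKM in Control, AngII and AngII+QDG mice, and Eef1d 24.3 ± 6.74, 29.9 ± 8.12 and 24.9 ± 4.74 FPKM.

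The main elongation factors passed in no comparison in limma (Eef1a1 at an unadjusted p of 0.0197 in AngII+QDG vs AngII). Eef1a1 was 1804 ± 150, 1638 ± 103 and 1884 ± 182 FPKM in Control, AngII and AngII+QDG mice, with log2 differences of -0.14 ± 0.08 (SE) in AngII vs Control and 0.20 ± 0.08 in AngII+QDG vs AngII, the latter at an adjusted p of 0.199. Eef2 was 584 ± 44.1, 561 ± 11.6 and 594 ± 21.9 FPKM, with differences of -0.05 ± 0.05 and 0.08 ± 0.05. Eef1a1 has near-identical copies in the genome, so its reads may be shared with them. Of the 5 tested enzymes that modify these factors, none passed in limma in any comparison. The lysine methyltransferase Eef1akmt4 was the only one with an unadjusted p under 0.05, in AngII+QDG vs AngII at -0.23 ± 0.09 and an adjusted p of 0.204, where 16.4% of all genes had an unadjusted p under 0.05.

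Single transcripts gave fewer calls. Of the 141 tested transcripts of these genes, 1 passed in AngII vs Control, against 0.691% of all 28812 transcripts, and 33 had an unadjusted p under 0.05, against 15.9%. None passed in limma in AngII+QDG vs AngII (0.0972% of all) or AngII+QDG vs Control (0.0243%), where 25 and 15 had an unadjusted p under 0.05, against 11.3% and 10%. The transcript was Eif3g-201, the main protein-coding form, at 21.9, 25.5, 21.9, 24.4 and 27.7 FPKM in Control and 30.6, 33.1, 33.1, 33.4 and 32.6 in AngII mice. The groups did not overlap, and it rose by 0.41 ± 0.07 (SE) with an adjusted p of 0.0210. That call was lost after quantile normalization, at equal medians, with the GC correction, with only the 2 groups fitted, and without Control mouse 1 or 3 or AngII mouse 2 or 5, each of which left 0 transcripts. In AngII+QDG vs AngII, Eif3b-201 came nearest, at -0.26 ± 0.05 and an adjusted p of 0.0537. Of 33 transcripts of these genes that retain an intron, 27 had a positive difference in AngII vs Control with a median of 0.20, and among all 2757 such transcripts 79.1% were positive with a median of 0.30. The 99 protein-coding transcripts had a median of 0.02, beside 0.06 for all protein-coding ones.

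GC content moved with the fold changes of all genes. Over 5 bins of GC content, which hold near-equal numbers of genes, the median log2 fold change of all genes in AngII vs Control was 0.01, 0.04, 0.08, 0.12 and 0.17, and in AngII+QDG vs AngII it went from 0.02 in the lowest bin to -0.06 in the highest. Eif3g (55.8% GC), Eif4h (55.5%), Eif3b (55.9%), Eif2b4 (56.8%) and Eif6 (57.9%) lie in the upper 2 bins, and Eef1e1 (44.1%), Eif4b (50.3%), Eif4enif1 (50.2%) and Eef1g (52.0%) do not. Over the 61 members, which share libraries, Spearman's rho of fold change with GC content was 0.30 in AngII vs Control and -0.34 in AngII+QDG vs AngII, beside 0.22 and -0.12 over all genes. With the GC correction, Eif3g (0.31), Eif4h (0.26) and Eif4b (-0.39) kept their calls in AngII vs Control and the other 6 lost them, and in AngII+QDG vs AngII the calls were kept by Eef1e1, Eif3b, Eif4b and Eif4g2.

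**Figure D5:**
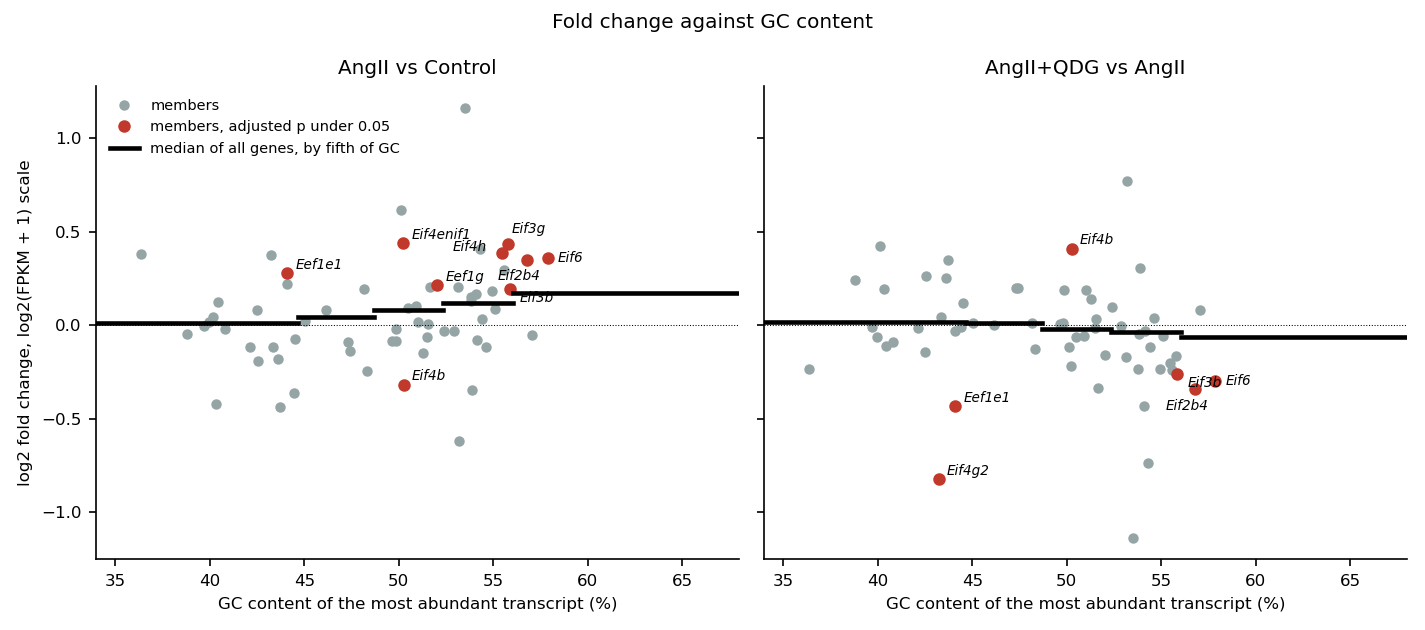
Log2 fold change of the 61 tested genes (points, red with an adjusted p under 0.05) against the GC content in percent of each gene's most abundant transcript, with black bars at the median of all genes in each of 5 bins of GC content that hold near-equal numbers of genes. The bars climb from 0.01 to 0.17 in AngII vs Control and go from 0.02 to -0.06 in AngII+QDG vs AngII.

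The other genes of the translation pathway were read from lists of 60 genes, of which 57 were tested. In AngII vs Control 5 rose and 1 fell, beside 4.95% and 0.995% of all genes, and none passed in either other comparison in limma. The 6 calls became 1 higher and 2 lower with quantile normalization or equal medians, 1 and 1 after the GC correction and 1 and 0 with protein-coding transcripts only, and leaving out a mouse left 2 to 5 (2 without Control mouse 1 or AngII mouse 2 or 5, 3 without Control mouse 2, 3 or 4 or AngII mouse 4). At an unadjusted p under 0.05 there were 12 of 57 in AngII+QDG vs AngII, against 16.4% of all genes, and 11 of 57 in AngII+QDG vs Control, against 14.4%. Of 10 tested genes of the eIF2 kinases and the integrated stress response, 2 rose and 1 fell. Ppp1r15b, which directs the eIF2 phosphatase, was 20.7 ± 0.957 in Control and 24.7 ± 1.24 FPKM in AngII mice (0.25 ± 0.05 SE, adjusted p = 0.0154), a call kept without any 1 mouse but lost in 4 of 8 other settings, both scalings and the GC correction among them (up to 0.105). Atf4, the transcription factor made when eIF2 is phosphorylated, was 33.5 ± 5.42 and 45.6 ± 7.28 FPKM (0.44 ± 0.12, adjusted p = 0.0488), and the call was kept only without Control mouse 4 or AngII mouse 1 among 15 fits (others up to 0.111) and with all listed transcripts among 8 other settings (others up to 0.195). Eif2ak2, the eIF2 kinase that senses double-stranded RNA, was 5.62 ± 0.713 and 4.12 ± 0.526 FPKM (-0.37 ± 0.10, adjusted p = 0.0472), kept only without Control mouse 5 or AngII+QDG mouse 1 among 15 fits (others up to 0.0968) and in 5 of 8 other settings.

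The share of all genes called higher in AngII vs Control, 4.95%, stands beside each of the lists that follow. Of 14 genes of mTORC1 control, Mknk1, a kinase of eIF4E, rose by 0.45 ± 0.11 (SE, adjusted p = 0.0299) and the other 13 did not pass. That call was lost without AngII mouse 1, 2, 4 or 5 or Control mouse 1, 4 or 5 (up to 0.0658), under both scalings and the GC correction, and its sign turned with protein-coding transcripts only (-0.40, adjusted p = 0.604). Of 6 genes of termination and ribosome rescue, Gtpbp2, which acts on stalled ribosomes, rose by 0.65 ± 0.10 (adjusted p = 0.00562) from 7.49 ± 0.728 to 12.4 ± 1.59 FPKM. Its call held without any 1 mouse and in 7 of 8 other settings, but over protein-coding transcripts alone the difference was -0.26 (adjusted p = 0.637). Of 9 enzymes that make hypusine on eIF5A or diphthamide on eEF2, Dohh, which completes hypusine, rose by 0.28 ± 0.07 (adjusted p = 0.0355), which was lost in 4 of 8 other settings (up to 0.665) and without any 1 Control mouse or AngII mouse 2, 4 or 5 (up to 0.0845). Among 10 genes of poly(A) binding, helicases and recycling and 8 of selenocysteine and mitochondrial translation none passed, and the smallest p in AngII vs Control belonged to Pabpc1 (-0.16 ± 0.07, adjusted p = 0.182) and Gfm2 (0.36 ± 0.11, adjusted p = 0.0670).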

How the data were processed

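The authors deposited a table of FPKM per transcript for each of 15 kidneys. The unit is not named in the files and was read from the values, because FPKM times transcript length gave whole reads (within 0.05) for 98.4% to 98.7% of low values. The paper's methods name rRNA depletion and a poly(A) step, and the submitters' processing notes name mm10 and limma. The aligner, counter and annotation are not given in the sources used here. The deposited tables list 40054 transcripts shared by all mice. Of these, 28863 were matched to GENCODE M21 and summed by gene, and 11141 assembled transcripts without a gene name were left out. Each Control mouse had 41477 transcripts listed, whereas each AngII mouse and each AngII+QDG mouse had 42310. The listing thus differed between Control and both other groups, and its part in the comparisons with Control was not tested. Groups came from the labels, which give no replicate numbers, so mice are numbered in accession order.

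Gene sums were tested with limma 3.58.1 (R 4.3.3, eBayes with trend) on log2(FPKM + 1) over all 15 mice, for 12366 genes with at least 1 FPKM in 5 mice, with Benjamini-Hochberg adjustment over all genes in each of 3 comparisons. Fold changes on this scale understate those of low genes. The code was checked on simulated data. Single transcripts were tested alike. Alternatives were a pseudocount of 0.1, no filter, quantile normalization, equal medians, only the 2 groups compared, protein-coding or all listed transcripts, each mouse left out, and a GC correction. Named genes were those called, the 5 Eif and 3 Eef genes of largest moderated t in AngII vs Control and in AngII+QDG vs AngII, a list of central factors, the most and least abundant, those not tested, transcripts called, and pathway genes called or of smallest p, while Eif3h, Eif3f, Eif3m, Eif3j1, Eif3j2, Eif3l, Eif1ax, Eif2b2, Eif4g3, Eif1b, Eif1ad, Eif4ebp3, Eef1akmt4, Eif4g2-213, Eif4g2-203 and Eif4g2-206 were named after their values were seen. Members and lists were chosen with earlier results of these data known. Promoter windows are from RefSeq on GRCm38.p6.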

Additional observations from a re-analysis of the deposited data

Results flagged for a closer look

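In 10 of 186 groups of 5 mice examined, a mouse stood apart from the other 4 in the level of a gene by Dixon's test, which chance alone does in about 1 in 20 groups. The low ones were Eef1b2 in AngII mouse 2 (59.3 FPKM), Eif1ad and Eif4g2 in Control mouse 4 (2.49 and 74.5 FPKM), Eif1ax, Eif3m and Eif4b in AngII mouse 3 (14.6, 30.3 and 64.8 FPKM) and Eif3j2 in AngII mouse 1 (listed at 0). The high ones were Eif4ebp3 in AngII mouse 3 (154 FPKM), Eif4g3 in Control mouse 3 (7.96 FPKM) and Eif5 in Control mouse 1 (82.5 FPKM). AngII mouse 3 held 4 of the 10.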

How the results depend on the processing

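No paired analysis was made, because each mouse gave a single sample and the paper describes random division of the mice into groups. Leaving out each mouse, the genes called ranged from 5 to 8 in AngII vs Control, 2 to 6 in AngII+QDG vs AngII and 0 to 1 in AngII+QDG vs Control, and transcripts from 0 to 3, 0 to 1 and 0 to 0. Calls among all genes moved as well, in AngII vs Control from 271 higher and 67 lower (without Control mouse 1) to 687 and 110 (without Control mouse 2), and in AngII+QDG vs AngII from 7 and 46 (without AngII mouse 2) to 52 and 197 (without AngII+QDG mouse 1). In AngII vs Control, 5 genes were called after quantile normalization, 5 with only the 2 groups fitted and 4 with the GC correction, and in AngII+QDG vs AngII 3 with only the 2 groups fitted; the cause was not tested. Transcripts called in AngII vs Control were 2 with a pseudocount of 0.1 and 0 under quantile normalization, equal medians, only the 2 groups or the GC correction. The medians of the initiation genes became -0.0735 (quantile) and -0.0730 (equal medians) in AngII vs Control, 0.0264 (quantile) in AngII+QDG vs AngII, and -0.0290, -0.0570 and -0.0531 (quantile, equal medians, GC correction) in AngII+QDG vs Control. Those of the elongation genes became -0.00368, -0.00771 and 0.0117 in AngII vs Control and -0.0313, -0.0504 and -0.0402 in AngII+QDG vs Control in the same order. Leaving out mice, the initiation medians ran from -0.00155 to 0.0688, -0.0396 to -0.00544 and -0.00711 to 0.0311 in the 3 comparisons, and the elongation medians from 0.0134 to 0.0853, -0.147 to -0.00937 and -0.0238 to 0.0537. Pathway genes called in AngII vs Control were 3 under quantile normalization, 3 at equal medians, 2 with the GC correction and 1 with protein-coding transcripts only, and leaving out mice gave 2 to 5, 0 to 1 and 0 to 0 in the 3 comparisons. With protein-coding transcripts only, Gtpbp2 (-0.26) and Mknk1 (-0.40) turned sign, since that setting leaves out their other transcripts. Fold changes of the named genes and transcripts kept their side of the threshold in 3166 refits, lost it in 184, gained it in 9 and turned in these 2. The standard errors in AngII vs Control were 0.71, 0.59, 0.49 and 0.53 on the log2 scale for Eif4e, Eif4a1, Eif4g1 and Eif2b5, against 0.06 for Eif4h, and the cause was not tested.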
